A study of Bos indicus with 6 samples.

Results

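NGFR, NTRK2, NTRK3, S100B, SOX10, PMP22 and NCAM1 are 7 genes of nerve, Schwann cells and neurotrophin signaling, and they were followed here in the isthmus of Nelore (Bos indicus) cows. Each was taken from the deposited expression table as the row whose gene symbol equals that name, which gave 7 of 24616 rows. The rule itself uses no measured value, but the 7 names were chosen with earlier results of these data known. The isthmus is the narrow segment of the oviduct next to the uterus, and its wall holds a folded epithelium, a connective tissue layer, smooth muscle and an outer serosa through which nerves run.

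RNA was sequenced from 6 cows, 1 library each, 3 in the LF/LCL group (large follicle, large corpus luteum; cows 617, 79 and 527) and 3 in the SF/SCL group (small follicle, small corpus luteum; cows 856, 489215 and 97). All were healthy multiparous Nelore cows, all received an intravaginal progesterone device (1 g) with 2 mg estradiol benzoate, and all were killed on day 4 after the GnRH injection that induced ovulation. In LF/LCL cows a prostaglandin F2α (PGF) injection accompanied device insertion and the device came out 42 h before GnRH, whereas in SF/SCL cows it came out 30 h before GnRH, and every cow had PGF at device removal and again afterwards. The sequenced cows were picked by the study as extremes of a larger set treated in this way, and the groups thus differ in their drug schedule and their ovarian state together, which cannot be told apart here.

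Neurotrophins are secreted proteins that keep neurons alive and guide the growth of their axons. They bind the Trk receptor tyrosine kinases, each with its preferred ligand, and the shared p75 receptor, which is encoded by NGFR and is also carried by non-myelinating and immature Schwann cells. Schwann cells wrap peripheral axons, depend on the transcription factor SOX10, contain the calcium-binding protein S100B and, when they form myelin, the membrane protein PMP22, whereas NCAM1 is an adhesion molecule of neurons, Schwann cells and several other tissues. None of the 7 is restricted to nerve: S100B, PMP22, NCAM1 and the Trk receptors are also made by some epithelial, muscle or connective tissue cells, and the RNA came from the whole wall.

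The libraries held 23899117 to 34193164 reads assigned to genes, and values are given as normalized counts, that is, reads divided by the size factor of the library. Cow 489215 of the SF/SCL group stood apart: the median absolute log2 difference of a tested gene from the median library was 0.609 in that cow and 0.123 to 0.226 in the other 5. Among the tested genes, 35.7% had their lowest and 36.7% their highest value in this 1 library. Accordingly, the 7 genes are given with all 6 libraries and without cow 489215, and other fold changes and medians also without it where that changed a call or a direction or moved a value by more than 1.5 times. In limma with Benjamini-Hochberg adjustment, 0 of 15387 tested genes (0%) passed an adjusted p of 0.05 with all 6 libraries, while 1333 (8.66%) had an unadjusted p under 0.05. edgeR with the same adjustment also called 0 genes, with 1307 under the unadjusted threshold, and DESeq2 called 416 genes (2.70%). Without cow 489215 limma called 2827 of 15495 genes (18.2%). The remaining cows of the groups then did not overlap, in either direction, in 8056 of these 15495 genes, all of the 7 included.

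All 7 genes had reads in every library and passed the filter on low values, and the Schwann cell markers MBP, ERBB3 and CDH19 also had reads in every library. The 3 genes whose groups did not overlap were NGFR and NCAM1, higher in all LF/LCL cows, and S100B, higher in all SF/SCL cows. Those 3 of 7 stand against 2787 of all tested genes (18.1%) without overlap between the groups, and the same 3 were those with an unadjusted limma p under 0.05, against 8.66% of all tested genes. None of the 7 passed the adjusted threshold of limma or edgeR with all libraries, DESeq2 called NGFR and S100B (2 of 7, against 2.70%), and limma without cow 489215 called 6 of 7 (against 18.2%), 3 in each direction. The 7 were chosen with earlier results of these data known, and the study had listed NGFR and S100B among its differing isthmus genes. These counts, and those of the gene lists below, are thus partly set by that choice and describe the named genes only. The median log2 fold change of the 7 genes (SF/SCL over LF/LCL) was -0.25 and that of all tested genes -0.02. The former was -0.71 without cow 489215 and, over the 6 genes that could then be fitted, -0.51 without cow 856 and -0.75 without cow 97, and it was -0.10 in DESeq2 and -0.13 in edgeR. A rank or permutation test of 3 against 3 libraries cannot go below an exact two-sided p of 0.1, so single values were not tested in that way.

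**Figure D1:**
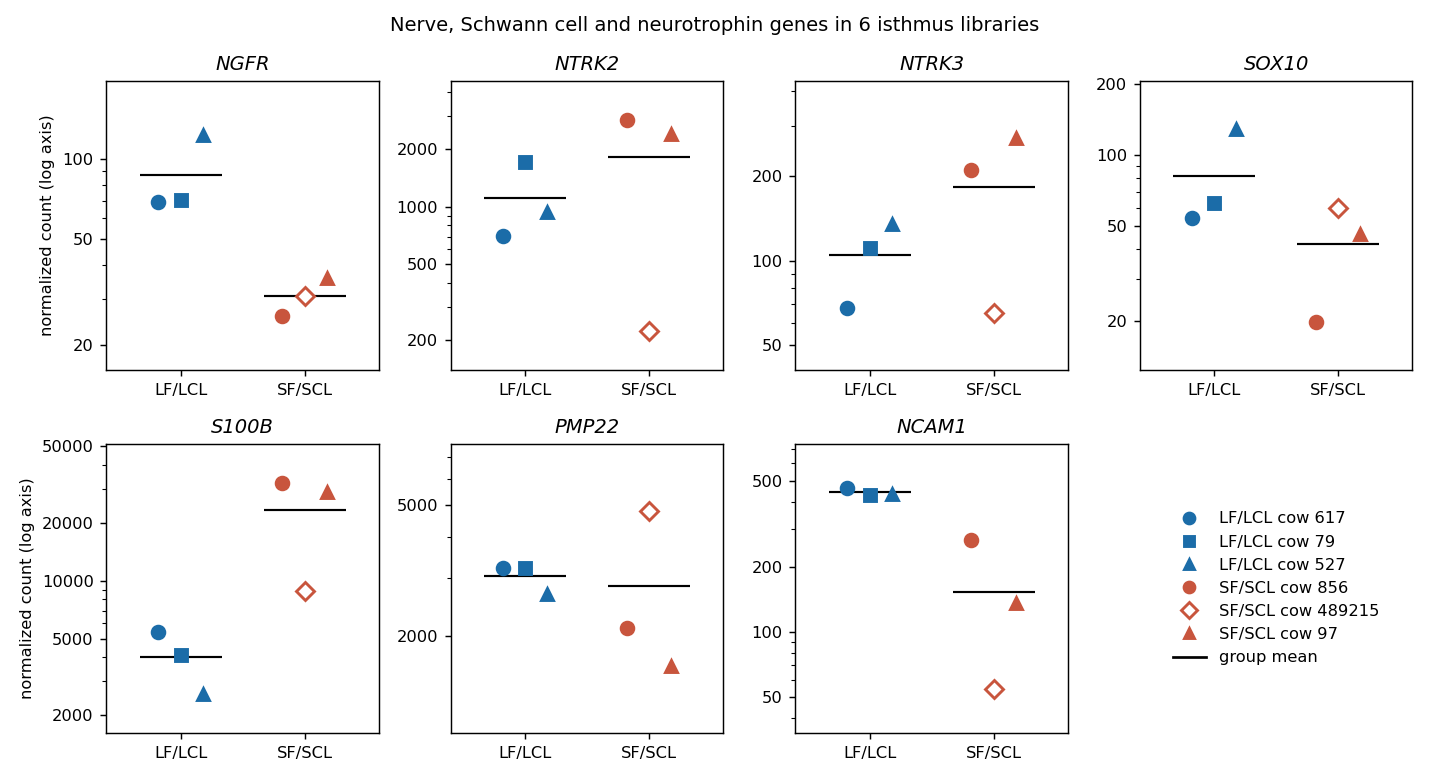
Normalized count (log axis) of each of the 7 genes in the 6 isthmus libraries, 1 point per cow, with the group mean as a bar and cow 489215 as an open diamond. NGFR and NCAM1 are higher in all 3 LF/LCL cows and S100B in all 3 SF/SCL cows, whereas NTRK2, NTRK3, SOX10 and PMP22 overlap.

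The common neurotrophin receptor NGFR was the most even of the genes in the SF/SCL group. Its normalized count (ENSBTAG00000020979) was 69.1, 70.4 and 123 in LF/LCL cows 617, 79 and 527 and 25.8, 30.6 and 35.8 in SF/SCL cows 856, 489215 and 97. All LF/LCL cows lay above all SF/SCL cows, with cow 527 highest, and cow 489215 lay between the other SF/SCL cows. The means were 87.5 ± 30.7 and 30.7 ± 4.97 (SD, n = 3 each), 2.85-fold higher in LF/LCL. The log2 fold change (SF/SCL over LF/LCL, on the scale of log2 of the normalized count plus 1) was -1.44 (SE 0.39, 95% interval -2.37 to -0.51) with an unadjusted limma p of 0.00847 and an adjusted p of 0.405. The DESeq2 adjusted p was 0.0207, and limma without cow 489215 gave -1.44 (SE 0.38) with an adjusted p of 0.0474. The counts were low, from 23 to 140 reads per library. Counting error alone gave cow 617, the lowest of LF/LCL, an exact Poisson 95% interval of 53.4 to 87.9 and cow 97, the highest of SF/SCL, one of 24.6 to 50.2, which did not overlap.

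The Trk receptors showed another pattern, in which the SF/SCL cows were split. NTRK2 encodes TrkB, the receptor of BDNF and NTF4. Its normalized count (ENSBTAG00000010647) was 709, 1710.2 and 939 in LF/LCL cows 617, 79 and 527 and 2852, 224 and 2415 in SF/SCL cows 856, 489215 and 97. Cow 489215 was the lowest of all 6 and the other SF/SCL cows were the highest, 11.8-fold above it by their mean, so that the groups overlapped. The residual SD of NTRK2 was larger than that of 97.4% of the tested genes. With all libraries its log2 fold change was 0.15 (SE 0.99, 95% interval -2.22 to 2.52; limma adjusted p = 0.977). Without cow 489215 it was 1.33 (SE 0.35, 95% interval 0.50 to 2.16; limma adjusted p = 0.0438), 2.35-fold higher in SF/SCL by the means.

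NTRK3, which encodes the NTF3 receptor TrkC, had the same split at lower counts. Its normalized count (ENSBTAG00000047543) was 68.0, 111 and 135 in LF/LCL cows 617, 79 and 527 and 210.4, 65.2 and 272 in SF/SCL cows 856, 489215 and 97. SF/SCL cows 856 and 97 were above every LF/LCL cow, and cow 489215 was at the level of LF/LCL cow 617, with counting intervals of 48.3 to 86.2 and 52.5 to 86.7. With all libraries it had a log2 fold change of 0.62 (SE 0.60, 95% interval -0.82 to 2.07; limma adjusted p = 0.859) and of 1.24 (SE 0.34; limma adjusted p = 0.0492) without cow 489215, which corresponds to a 2.30-fold higher mean in SF/SCL. The limma call therefore rested on leaving out that cow for both Trk receptors, and for NGFR too, although the difference of NGFR had the same size with and without it. The unadjusted limma p of NGFR hardly moved, from 0.00847 to 0.00820, and its residual SD rose from 0.37 to 0.42. Its adjusted p fell because more of all tested genes had a small p without that cow. Those with an unadjusted limma p under 0.05 rose from 1333 to 5253.

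Among the ligands, BDNF had 2 reads in cow 79, 1 in cow 489215 and 0 in the other 4, so that no difference could be detected at this depth. NTF3 and NTF4 were measured in every library and had their highest value in cow 489215. NTF3 had 51.3, 63.8 and 56.2 in the LF/LCL cows and 31.1, 161 and 50.9 in SF/SCL cows 856, 489215 and 97, a log2 fold change of 0.16 (limma adjusted p = 0.96) that was -0.50 without cow 489215 (limma adjusted p = 0.36). NTF4 had 90.0, 85.4 and 101 in the LF/LCL cows and 33.4, 126 and 49.9 in the SF/SCL cows, and its log2 fold change of -0.62 (limma adjusted p = 0.837) became -1.15 (limma adjusted p = 0.0471) without cow 489215. In that cow the ligand NTF4 was thus at its maximum and the receptor NTRK2 at its minimum, and the same held for NTF3 and NTRK3. Of all tested genes, 36.7% had their maximum and 35.7% their minimum in that cow. The NTRK3 minimum of 65.2 was close to the 68.0 of cow 617. A relation of ligand and receptor was not tested. SORT1, the sortilin that forms a receptor complex with p75 for the uncleaved neurotrophins, was also lowest in cow 489215 (634, against 1708 to 2712 in the other 5), and its log2 fold change was -0.29 (limma adjusted p = 0.916). Without that cow SORT1 turned to 0.37 (limma adjusted p = 0.0966), with both remaining SF/SCL cows above every LF/LCL cow. Groups that did not overlap without cow 489215 were seen in 8056 of 15495 tested genes.

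Of a list of 38 further neurotrophin and GDNF family pathway genes, 37 were found, 4 had a mean of 5 or less, 1 had an SD as large as its mean and 32 were tested. The median log2 fold change of the 32 was -0.26, against -0.02 for all tested genes, with 23 below 0 and 9 above. 5 of 32 had an unadjusted limma p under 0.05, 4 higher in LF/LCL and 1 in SF/SCL, against 8.66% of all tested genes, and the groups did not overlap in 7, against 18.1%. DESeq2 called 1 of 32, SORCS3 (against 2.70% of all tested genes), and limma without cow 489215 called 5 of 32 (against 18.2%).

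The 4 higher in LF/LCL were a pair of sortilin-family receptors, the trophic factor GDNF and the protease FURIN, which cleaves neurotrophin precursors. SORCS1 of the same family failed the SD filter, had a higher mean in SF/SCL and is named after its values were seen. It had 17.8 to 35.6 in LF/LCL and 239, 24.0 and 203 in SF/SCL cows 856, 489215 and 97, with overlap. SORCS3 had 485, 501 and 454 in LF/LCL cows 617, 79 and 527 and 197, 324 and 253 in SF/SCL cows 856, 489215 and 97, without overlap. Its log2 fold change was -0.92 (SE 0.26, limma unadjusted p = 0.0103, adjusted p = 0.412), with an adjusted p of 0.0372 in DESeq2 and of 0.009 in limma without cow 489215. SORCS2 (-1.76, limma unadjusted p = 0.0251) had 22.6 in cow 489215, 82.8 and 91.0 in the other SF/SCL cows and 132 to 262 in LF/LCL, and without cow 489215 its log2 fold change was -1.13 (limma adjusted p = 0.0573). FURIN (-0.92, limma unadjusted p = 0.0431) likewise was lowest in cow 489215, at 933, with 2289 and 2207 in the other SF/SCL cows and 2986 to 3543 in LF/LCL, and without cow 489215 its log2 fold change was -0.50 (limma adjusted p = 0.0252). GDNF rested on few reads, 10 to 14 per LF/LCL library and 1 to 6 per SF/SCL library, and it reached the mean filter through LF/LCL alone, so its place in this count is partly set by the filter. The 1 gene higher in SF/SCL was TRAF6, a ubiquitin ligase that docks on p75 among other receptors, with 844 to 946 in LF/LCL and 1212, 1662 and 1167 in SF/SCL (0.57, limma unadjusted p = 0.0294, adjusted p = 0.0398 without cow 489215).

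**Figure D2:**
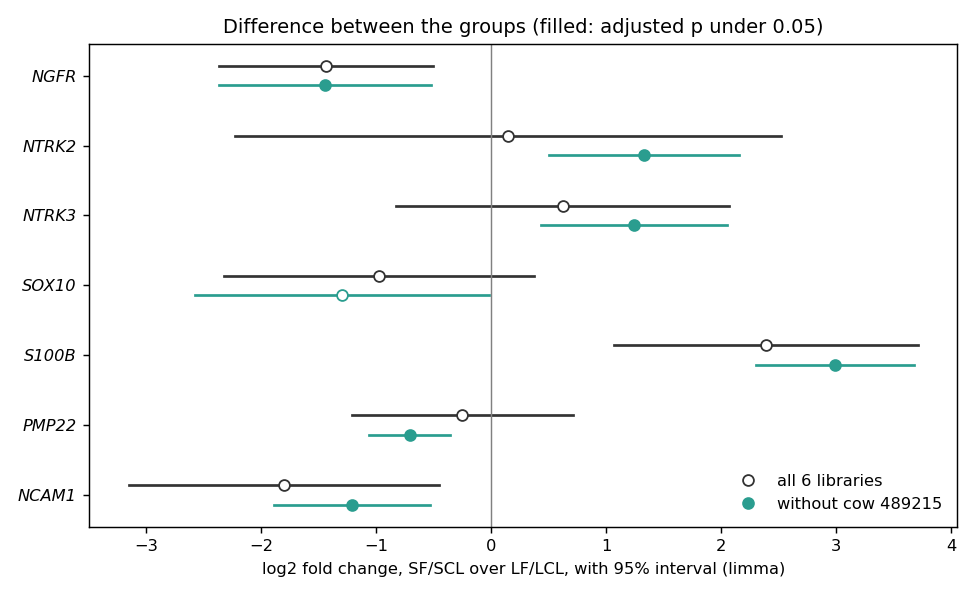
Log2 fold change (SF/SCL over LF/LCL, limma) of the 7 genes with its 95% interval, with all 6 libraries (dark) and without cow 489215 (green). Points are filled where the adjusted p was under 0.05, which was the case for no gene with all libraries and for 6 without cow 489215, SOX10 being the exception.

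S100B, the calcium-binding protein of glia that is also found in some epithelial cells, had the largest difference of the 7 genes. Its normalized count (ENSBTAG00000004777) was 5399.7, 4115 and 2584 in LF/LCL cows 617, 79 and 527 and 32285, 8852 and 29027 in SF/SCL cows 856, 489215 and 97. Every SF/SCL cow was above every LF/LCL cow, and cow 489215 lay between the LF/LCL cows and the other SF/SCL cows. The means were 4033 ± 1410 and 23388 ± 12693 (SD, n = 3 each), 5.80-fold higher in SF/SCL and 7.60-fold without cow 489215. The log2 fold change was 2.39 (SE 0.55, 95% interval 1.07 to 3.71), larger in size than that of 99.6% of the tested genes. Its unadjusted limma p was 0.00400 and its adjusted p 0.381, the DESeq2 adjusted p was 0.00065, and limma without cow 489215 gave 2.99 (SE 0.29) with an adjusted p of 0.0027.

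SOX10, the transcription factor that defines the Schwann cell lineage, was not higher in SF/SCL with S100B. Its normalized count (ENSBTAG00000004822) was 54.4, 62.9 and 128 in LF/LCL cows 617, 79 and 527 and 19.7, 59.9 and 46.6 in SF/SCL cows 856, 489215 and 97. Cow 527 was the highest, as it was for NGFR, cow 856 was the lowest, and cow 489215 lay between cows 617 and 79, so that the groups overlapped. The means were 81.9 ± 40.4 and 42.1 ± 20.5 (SD, n = 3 each). The log2 fold change of -0.98 (SE 0.56, 95% interval -2.33 to 0.37; limma adjusted p = 0.723) was -1.29 (SE 0.53) without cow 489215, with an unadjusted p of 0.0481 and an adjusted p of 0.144, and SOX10 was the one gene of the 7 not called in that fit. The libraries held 26 to 146 SOX10 reads.

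PMP22, a protein of compact myelin that many non-neural cells also make, was uniform in LF/LCL and divided in SF/SCL. Its normalized count (ENSBTAG00000019070) was 3213, 3218 and 2688 in LF/LCL cows 617, 79 and 527 and 2117, 4799.6 and 1623 in SF/SCL cows 856, 489215 and 97. Cow 489215 was the highest of all and the other SF/SCL cows the lowest, the reverse of the order seen for NTRK2 and NTRK3. With all libraries PMP22 had a log2 fold change of -0.25 (SE 0.40, 95% interval -1.21 to 0.71; limma adjusted p = 0.907). Without cow 489215 it was -0.71 (SE 0.15; limma adjusted p = 0.0226), a 1.63-fold higher mean in LF/LCL.

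NCAM1, the neural cell adhesion molecule, was nearly the same in the 3 LF/LCL cows and lower in every SF/SCL cow. Its normalized count (ENSBTAG00000005710) was 463, 429.9 and 436 in LF/LCL cows 617, 79 and 527 and 267, 54.6 and 137 in SF/SCL cows 856, 489215 and 97. The coefficient of variation was 3.95% in LF/LCL and 70.1% in SF/SCL, where cow 489215 was lowest, 8.11-fold below the LF/LCL mean. The means were 443 ± 17.5 and 153 ± 107 (SD, n = 3 each), 2.90-fold higher in LF/LCL. For NCAM1 the log2 fold change was -1.80 (SE 0.56, 95% interval -3.15 to -0.46), with an unadjusted limma p of 0.0163, an adjusted limma p of 0.448 and an adjusted DESeq2 p of 0.126. Without cow 489215 it was smaller, -1.21 (SE 0.28), and passed (limma adjusted p = 0.0324).

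Most of the other tested genes of Schwann cells and glia had a log2 fold change below 0, as SOX10 had, but none passed the adjusted limma threshold with all libraries. Of 30 listed genes 28 were found, 5 had a mean of 5 or less, 5 had an SD as large as their mean and 18 were tested. The median log2 fold change of the 18 was -0.68 (-0.02 for all tested genes), with 15 below 0 and 3 above. It was -0.41 over 23 genes with the filter on the mean alone, -0.39 over 28 without the filter, -0.45 in DESeq2 and -0.94 without cow 489215. 7 of 18 had an unadjusted limma p under 0.05 (8.66% of all tested genes), and in 7 the groups did not overlap (18.1%), in each case all higher in LF/LCL. DESeq2 called 1 of 18 (2.70% of all tested genes), and limma without cow 489215 called 7 of 20 (18.2% of all tested genes), 6 higher in LF/LCL and 1 in SF/SCL. A gene that reaches the mean filter through a single group, as FOXD3 did, enters these counts partly because its groups differ, so the counts describe the list only.

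GPM6B, a membrane protein of glia and neurons, had the smallest p of the list. Its normalized count was 1056, 1452 and 1578 in LF/LCL cows 617, 79 and 527 and 405, 600.4 and 583 in SF/SCL cows 856, 489215 and 97, without overlap and with cow 489215 among the other SF/SCL cows. Its log2 fold change was -1.36 (SE 0.26), with an unadjusted limma p of 0.00148, an adjusted limma p of 0.367, an adjusted DESeq2 p of 0.000688 and an adjusted limma p of 0.00979 without cow 489215. FABP7, a lipid-binding protein of immature glia, had 126 to 152 in LF/LCL and 45.6, 94.5 and 52.0 in SF/SCL (-1.14, limma unadjusted p = 0.0216), and -1.45 without cow 489215 (limma adjusted p = 0.0137). EGR2, the regulator of the myelinating state, had 13.2 to 36.6 in LF/LCL and 3.99 to 6.50 in SF/SCL (-1.95, limma unadjusted p = 0.00831). It rested on few reads, 15 to 35 per LF/LCL library and 3 to 7 per SF/SCL library. DHH, a signal from Schwann cells to the nerve sheath, had 20.9 to 41.3 in LF/LCL and 10.7 to 17.5 in SF/SCL (-1.19, limma unadjusted p = 0.0353). FOXD3, a neural crest factor, had 4, 13 and 14 reads in LF/LCL cows 617, 79 and 527 and 2, 1 and 1 reads in SF/SCL cows 856, 489215 and 97.

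MBP, a structural protein of myelin, was lowest in cow 489215 (47.9, against 152 to 322 in the other 5) and had a log2 fold change of -0.25 (limma adjusted p = 0.952). Without that cow MBP turned to 0.65 (limma adjusted p = 0.111), with both remaining SF/SCL cows above every LF/LCL cow, where 8056 of 15495 tested genes had no overlap. ERBB3, the neuregulin receptor of Schwann cells that epithelia also carry, was at 4386 to 7069 in every library, with a log2 fold change of 0.26 (limma adjusted p = 0.841) and of 0.43 without cow 489215 (limma adjusted p = 0.0946).

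CDH19, a cadherin typical of Schwann cells, failed the filter because its SD exceeded its mean. It had 76.4, 63.8 and 190 in LF/LCL cows 617, 79 and 527 and 15.2, 22.6 and 19.5 in SF/SCL cows 856, 489215 and 97, without overlap, and without cow 489215 its log2 fold change was -2.44 (limma adjusted p = 0.025). Cow 527 was the highest library for CDH19, SOX10 and NGFR alike. CDH2, PTPRZ1 and TFAP2A, listed with the glia but also made by epithelia, failed the filter in the other direction, without overlap, and are named here after their values were seen. CDH2 had 47.4 to 142 in LF/LCL and 1581, 188 and 2493 in SF/SCL cows 856, 489215 and 97, PTPRZ1 had 19.7 to 76.4 and 709, 125 and 165, and the transcription factor TFAP2A had 2.09 to 6.57 and 22.0, 186 and 44.4.

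Some markers of neurons and axons had few or no reads, as did many of all 24616 genes, of which 5476 were at 0 in every library and 8694 had a mean of 5 or less. Of 37 listed genes 35 were found, of which 3 (CHAT and NPY among them) had 0 reads in every library, 12 had a mean of 5 or less including those 3, 3 had an SD as large as their mean and 20 were tested. The median log2 fold change was -0.29 (-0.02 for all tested genes), 2 of 20 had an unadjusted limma p under 0.05 (8.66% of all tested genes) and in 3 the groups did not overlap (18.1%). DESeq2 called 1 of 20, CHRNA3 (against 2.70% of all tested genes), and limma without cow 489215 called 4 of 20 (against 18.2%).

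CHRNA3, a subunit of the nicotinic receptor of autonomic ganglia, had 857, 978 and 736 in LF/LCL cows 617, 79 and 527 and 236, 478 and 371 in SF/SCL cows 856, 489215 and 97. The groups did not overlap, and the log2 fold change was -1.29 (SE 0.31, limma unadjusted p = 0.00484), with an adjusted p of 0.0157 in DESeq2 and of 0.00845 in limma without cow 489215. RTN1, a reticulon of neurons and neuroendocrine cells, was the other gene under the unadjusted threshold, in the opposite direction, with 2119 to 2259 in LF/LCL and 4099, 2488 and 3724 in SF/SCL (0.62, limma unadjusted p = 0.0307, adjusted p = 0.00352 without cow 489215).

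The defining axonal markers overlapped between the groups. UCHL1 had 61.0 to 206 in LF/LCL and 68.4 to 213 in SF/SCL, TUBB3 had 475 to 650 and 454 to 907, and the synaptic gene SNAP25 had 49.7 to 298 and 120 to 363, each with its highest value in cow 489215. TH, the rate-limiting enzyme of catecholamine synthesis in sympathetic nerves, had 17.8, 57.3 and 79.9 in LF/LCL and 21.3, 5.32 and 52.0 in SF/SCL, with a log2 fold change of -1.19 (limma adjusted p = 0.818) that was -0.38 without cow 489215. Of the intermediate filament genes of axons, NEFL had at most 2 reads per library and PRPH 10 to 28.

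**Figure D3:**
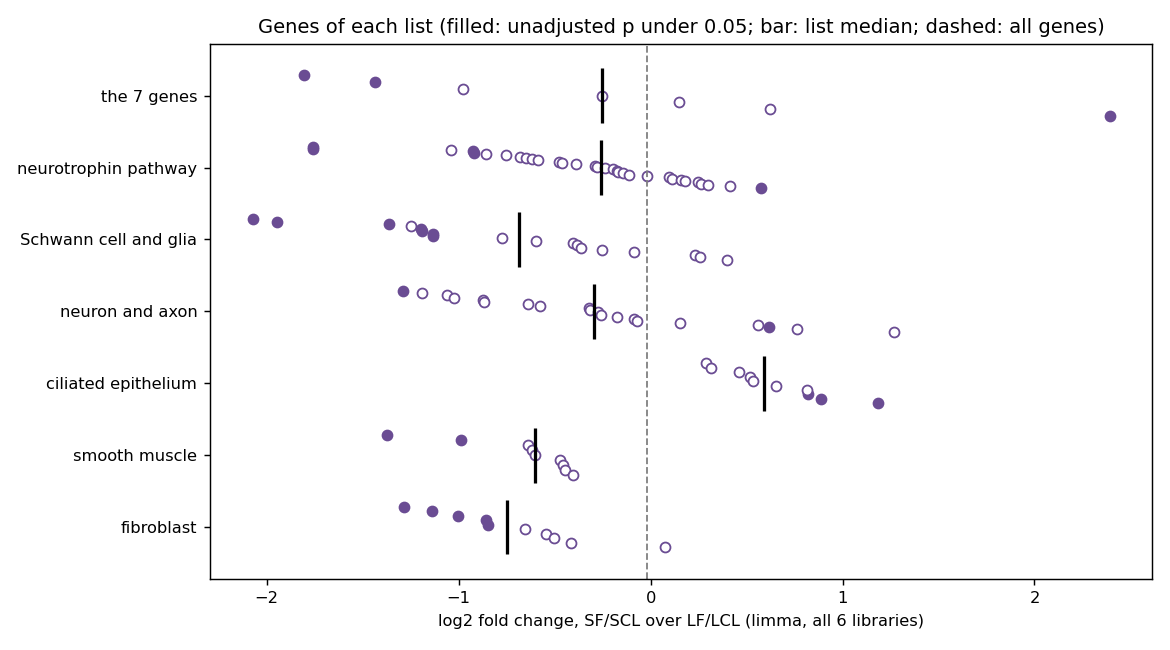
Log2 fold change (SF/SCL over LF/LCL, limma, all 6 libraries) of every tested gene of each list, 1 point per gene, filled where the unadjusted p was under 0.05, with the list median as a bar and the median of all tested genes as a dashed line. The Schwann cell and glia list has its median at -0.68 and the ciliated epithelium list at 0.59, while S100B lies at 2.39, apart from the tested glial genes. Of the 5 glial genes that failed the SD filter and are not drawn, CDH2, PTPRZ1 and TFAP2A were higher in all SF/SCL cows and CDH19 in all LF/LCL cows.

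Markers of the other cell types of the wall differed between the groups and in cow 489215, and in bulk RNA fewer cells of a type and less RNA per cell cannot be told apart. The summed normalized count of 10 ciliated cell genes (of 12 listed) was 18216 to 21391 in LF/LCL and 44843, 13330 and 48239 in SF/SCL cows 856, 489215 and 97. All 10 had a log2 fold change above 0, with a median of 0.59 (1.13 without cow 489215). Of these 10, 3 had an unadjusted limma p under 0.05 (8.66% of all tested genes). Limma without cow 489215 called 10 of 10 (18.2% of all tested genes). The sum of 9 smooth muscle genes (of 10) was 745756 to 867500 in LF/LCL and 349590, 1232007 and 407394 in SF/SCL, with a median log2 fold change of -0.60 (-1.02 without cow 489215) and all 9 below 0. Here 2 of 9 had an unadjusted limma p under 0.05, and limma without cow 489215 called 7 of 9, all higher in LF/LCL. The sum of 10 fibroblast genes was 129610 to 174377 in LF/LCL and 83579, 146528 and 90781 in SF/SCL, with a median of -0.75. Of the fibroblast genes 5 of 10 had an unadjusted limma p under 0.05, and limma without cow 489215 called 7 of 10, all higher in LF/LCL.

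Cow 489215 thus had the lowest ciliated sum and the highest smooth muscle sum, and the other SF/SCL cows were at the opposite ends. Gene by gene this was less uniform: 5 of 10 ciliated genes were lowest in that cow. Of 9 smooth muscle genes 5 were highest and 2 lowest there. The median centered log2 value of the ciliated genes was -0.43 in that cow and -0.51 in cow 527. NTRK2 and NTRK3, like the ciliated sum, were highest in SF/SCL cows 856 and 97 and lowest in cow 489215, and PMP22, like the smooth muscle sum, was highest in cow 489215 and lowest in cows 856 and 97. S100B followed neither fully, since it was higher in cow 489215 than in any LF/LCL cow while the ciliated sum was lower there. The sum of 9 secretory and general epithelial genes (of 10), most of it from the oviduct glycoprotein OVGP1 in cows 856 and 97, was 28541 to 41705 in LF/LCL and 315370, 64598 and 376919 in SF/SCL, so that the sum of cow 489215 lay between the groups, as S100B did, although 5 of these 9 genes were highest in that cow. The part of the ciliated, secretory, smooth muscle and fibroblast content in the differences of the 7 genes was not tested.

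**Figure D4:**
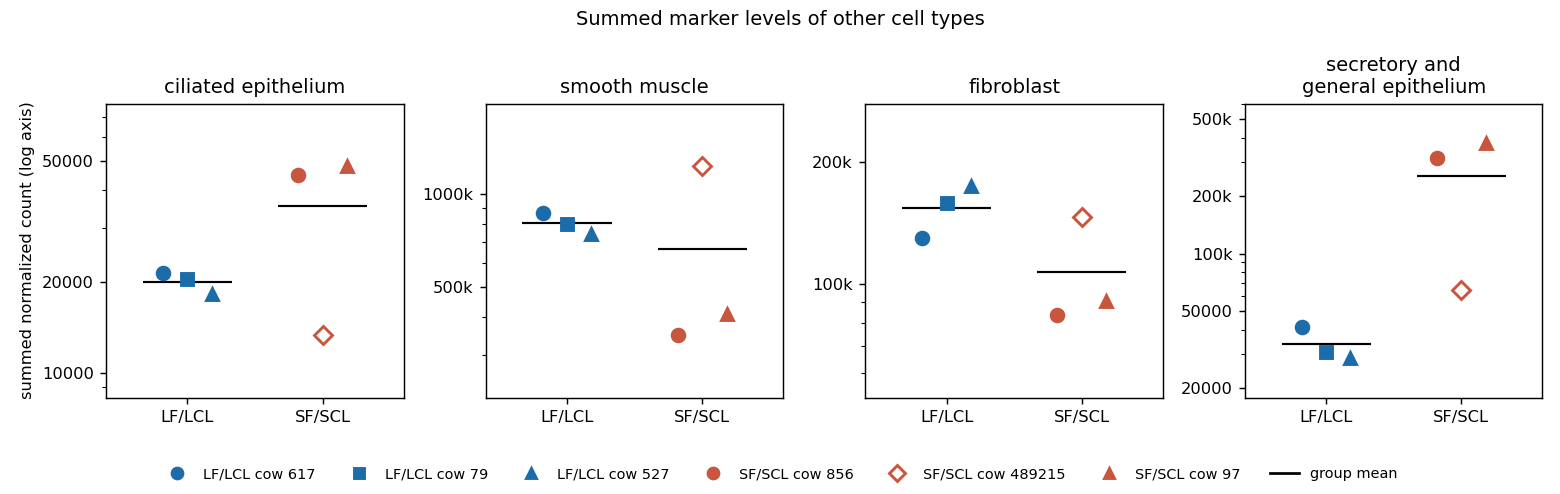
Summed normalized count (log axis) of the marker genes of 4 other cell types of the oviduct wall in the 6 libraries, 1 point per cow, with the group mean as a bar and cow 489215 as an open diamond. Ciliated and secretory sums are highest in SF/SCL cows 856 and 97, which are lowest for smooth muscle, and cow 489215 has the lowest ciliated and the highest smooth muscle sum.

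Of the remaining cell types, endothelial genes (9 of 10 listed) summed to 14127 to 18238 in LF/LCL and 11602, 17941 and 12413 in SF/SCL. Leukocyte genes (10) summed to 2425 to 4224 and 3467, 2888 and 3238, without a gene under the unadjusted threshold. Mesothelial genes (7 of 8), which mark the serosa, summed to 2940 to 3401 in LF/LCL and 28215, 3529 and 27430 in SF/SCL cows 856, 489215 and 97, a further sum with cows 856 and 97 apart from the other 4. Of these 7 genes 5 failed the SD filter, and the 1 tested with all libraries was higher in LF/LCL (log2 fold change -1.97), as were 2 of the 3 tested without cow 489215. No listed marker of these 7 cell types was at 0 in every library.

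The 7 genes did not share 1 profile over the libraries. Likeness was measured as the root mean square (RMS) difference of the centered log2 values of a pair of genes over the 6 libraries, so that a smaller value means a closer profile, and it is a description without a test, since all pairs share the same libraries. The closest of the 7 were NGFR and SOX10 (0.460), followed by NTRK2 with NTRK3 (0.717) and SOX10 with PMP22 (0.757). S100B was the farthest from the rest, at 2.13 from NCAM1, 2.09 from NGFR and 2.07 from SOX10.

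Against the lists, the median RMS difference of S100B was 1.90 to the Schwann cell and glia genes, 0.937 to the ciliated genes and 1.44 to all tested genes. NTRK3 was likewise closer to the ciliated genes (0.531) than to all genes (0.857), as was NTRK2 (0.944 and 1.29). SOX10 was at 0.763 from the Schwann cell and glia genes and 0.866 from all genes, and NGFR at 0.738 and 0.886, but both were closer to the fibroblast genes (0.584 and 0.513), and SOX10 also to the smooth muscle (0.649), endothelium (0.697) and neuron (0.755) genes. PMP22 was closest to smooth muscle (0.332) and endothelium (0.357), with 0.615 to all genes, and NCAM1 was at 0.964 from the Schwann cell and glia genes and 1.19 from all genes.

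Among all tested genes, the 3 closest to NGFR were ADAM23 (RMS difference 0.095), RYR2 (0.138) and MFSD4 (0.194). Those of SOX10 were PTN (0.20), SCG3 (0.212) and NLGN3 (0.216), and those of S100B, less close, were FCGBP (0.284), LRRC18 (0.296) and TGM3 (0.347). NTRK2 was nearest to ST8SIA1 (0.224), ABCC6 (0.240) and AATK (0.255), and NTRK3 to CBLN3 (0.124), PION (0.170) and S100A1 (0.199). PMP22 had the closest neighbors, CCDC85B (0.0566), ACSF2 (0.0691) and SLC16A3 (0.0795), and NCAM1 was nearest to SLC6A17 (0.191), PCDH19 (0.219) and WISP1 (0.236).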

How the data were processed

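The authors trimmed the reads, aligned them with TopHat2 2.0.8 and Bowtie2 2.1.0 to the bovine UMD assembly, counted them per Ensembl gene with HTSeq and normalized them with DESeq 1.12.1 (versions per the submitters' processing notes). The deposited signal values are counts divided by the size factor of each library, and whole reads were recovered for all 147696 values (tolerance 0.02 reads). Whether strand was used in counting is not given in the sources used here, so antisense overlap cannot be separated. Of 24616 genes, 15387 had a mean over 5 and above their SD. Their log2 values with a pseudocount of 1 were tested with limma 3.58.1 (trend and robust) in R 4.3.3 with Benjamini-Hochberg adjustment at 0.05, and the recovered reads with edgeR 4.0.16 and DESeq2 1.42.0 as alternatives. Other normalizations, filters and pseudocounts and leaving out each cow were also tried. Scripts were tested on simulated data. Replicates were separate cows. Poisson intervals cover counting error only.

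The 7 genes and the gene lists were chosen with earlier results of these data known. Genes named were the 7, the ligands and defining nerve markers whatever their values, up to 6 genes per list with the largest change under an unadjusted p of 0.05, and the 3 nearest profiles per gene. Of each cell type list, up to 2 markers with the highest mean could be named. Some of these genes are not reported here. Among those not found under the listed symbols were NRADD, MAL, NEFM, CALCA, ACTG2, HYDIN, CFAP126, CDH1, PECAM1 and ITLN1. No sequences were used.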

Additional observations from a re-analysis of the deposited data

How the results depend on the processing

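With all 6 libraries, edgeR with either normalization, rescaled values, other filters and other pseudocounts called 0 genes, while DESeq2 called 416 of all genes, 2 of the 7, and 1 each of the neurotrophin pathway, Schwann cell and glia, and neuron and axon lists. Leaving out 1 cow gave 0 to 2827 calls over all genes, 0 to 6 of the 7, 0 to 5 of the neurotrophin pathway list, 0 to 7 of the Schwann cell and glia list and 0 to 4 of the neuron and axon list, and each count above 0 came from leaving out cow 489215. The log2 fold change of NTRK2 ran from -0.50 to 1.33 over the cows left out (-0.13 without cow 617, -0.50 without cow 856 and -0.38 without cow 97), and that of PMP22 from -0.71 to 0.074 (0.074 without cow 97). The other 5 kept their direction in every alternative that gave a value: NCAM1 from -2.34 to -1.21, NGFR from -1.58 to -1.17, SOX10 from -1.29 to -0.52, NTRK3 from 0.22 to 1.24 and S100B from 2.1 to 2.99. S100B could not be fitted without cow 856 or 97, where its SD reached its mean. No paired analysis was possible because the groups share no cow numbers. Group sizes of 3, and a single library that stands apart, limit every call. BDNF and NEFL had too few reads to compare.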
